A study of Mus musculus with 40 samples.

Results

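The genes described here are the mouse globin genes and Alas2, read out in bulk RNA sequencing of embryonic forebrain with and without an added copy of Chd8. They were chosen by name as 7 members. The embryonic globins are Hbb-y, Hba-x and Hbb-bh1, the adult globins are Hba-a1, Hba-a2 and Hbb-bs, and Alas2 joins the adult set. All 7 had a row among 17940 genes at E14.5, and 4 of the 7 had one among 15449 genes at E18.5, where E stands for embryonic day. Over both stages 17974 genes were listed.

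Polyadenylated RNA came from the forebrain of male embryos. At each stage 5 wild-type (WT) libraries were compared with 5 libraries labelled Chd8 KI, which the study's title describes as carrying a duplicated Chd8. CHD8 uses ATP to remodel chromatin, and mutations of its gene are a known cause of autism. The labels used here give no strain, litter or construct, so p-values measure only the spread between these libraries, which may be technical. The authors' deposited table gives Chd8 itself log2 fold changes of 0.64 (SE 0.031) at the earlier stage and 0.51 (SE 0.038) at the later. The header does not name the numerator, so the direction was read from Chd8 and a positive value is taken as higher in KI. The forebrain marker Emx1 stood at a mean normalized count of 1281 at E14.5 in the authors' deposited table, and all 10 forebrain markers listed had a row at both stages.

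Haemoglobin carries oxygen in red blood cells and is built from alpha-like and beta-like chains, each holding a haem group. In the mouse embryo the first red cells arise in the yolk sac, enter the circulation with their nuclei and make embryonic chains. Red cells formed later in the fetal liver make adult chains and progressively replace them. Alas2 encodes the erythroid form of the enzyme that starts haem synthesis. Brain tissue contains blood unless it has been perfused, so globin RNA is usually found in forebrain libraries. In bulk tissue, fewer red cells and less globin RNA per red cell cannot be told apart.

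The beta-like members lie together on chromosome 7 and the alpha-like members on chromosome 11, while Alas2 is on the X chromosome. In the RefSeq gene table of GRCm38.p6, Hbb-y (gene ID 15135) spans 103851754 to 103853207 on chromosome 7, Hbb-bh1 (15132) spans 103841638 to 103843162 and Hbb-bs (100503605) spans 103826523 to 103827928. On chromosome 11, Hba-x (15126) spans 32276600 to 32278116, Hba-a1 (15122) spans 32283672 to 32284486 and Hba-a2 (110257) spans 32296492 to 32297310. Alas2 (11656) spans 150547417 to 150570622 on the X chromosome. All 7 are annotated as protein-coding.

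The promoters of both embryonic globins that rose at E14.5 are shown first, followed by an adult alpha and an adult beta promoter, so that the genes called at E14.5 can be read beside adult genes that were not. Each is the 150 bases before the annotated start site in GRCm38.p6, from RefSeq, printed in the direction of the gene. Capitals mark 4 kinds of short motif. The CACCC motif is the core of the box that Krüppel-like factors such as KLF1 bind in erythroid promoters. The CCAAT motif is a common promoter element found a short way before many start sites. The sequence GATAA was taken as the core bound by the GATA factors of blood cells. The sequence TATAAA, which positions the start of transcription, was searched together with a form that ends in G (written TATAAG in the adult globin promoters) and a form that begins with C (written CATAAA in the promoter of the embryonic gene Hbb-y), and these 3 are called TATA-like.
Hbb-y (chr7:103853208-103853357, minus strand): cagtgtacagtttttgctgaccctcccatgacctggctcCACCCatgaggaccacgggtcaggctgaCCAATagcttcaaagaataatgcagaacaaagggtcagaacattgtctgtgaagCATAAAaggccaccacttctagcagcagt
Hba-x (chr11:32276450-32276599, plus strand): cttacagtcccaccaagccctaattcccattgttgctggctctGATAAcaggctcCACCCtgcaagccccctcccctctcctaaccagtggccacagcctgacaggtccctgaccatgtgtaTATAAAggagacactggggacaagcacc
Hba-a1 (chr11:32283522-32283671, plus strand): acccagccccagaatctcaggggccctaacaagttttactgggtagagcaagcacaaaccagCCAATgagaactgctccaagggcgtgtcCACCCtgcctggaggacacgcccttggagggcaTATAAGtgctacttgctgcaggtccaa
Hbb-bs (chr7:103827929-103828078, minus strand): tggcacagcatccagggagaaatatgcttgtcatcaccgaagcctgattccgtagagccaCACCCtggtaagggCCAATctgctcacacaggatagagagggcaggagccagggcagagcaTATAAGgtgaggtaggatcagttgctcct

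Entries were found for 6 of the 7 members, all but Hbb-bh1. The motifs were chosen after the sequences had been seen, were searched on both strands, and no match overlapped a match of another motif. CACCC occurred in all 6 windows, against 37.4% of 32851 promoter windows of the same length. A TATA-like element occurred in the 5 globin windows and not in that of Alas2, against 15.8% of all windows. CCAAT was found in Hbb-y, Hba-a1, Hba-a2 and Hbb-bs, against 24.5%. These 4 windows also held a CACCC motif and a TATA-like element, and all 3 together were present in 414 of all windows. The GATAA motif was found in Hba-x and Alas2, against 13.3% of windows. These matches are a description of sequence, not of binding.

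The entry of Hba-a2, not printed, is almost a copy of that of Hba-a1. Across 300 bases, made of 250 upstream and 50 transcribed bases, the longest identical run between them was 297 bases and covered all 50 transcribed bases of Hba-a1. Between any other pair of members the longest identical run was at most 12 bases. Reads from Hba-a1 and Hba-a2 can therefore be shared or lost, depending on how multiply aligned reads were counted, which is not given in the sources used here. The values of these genes are uncertain for that reason. Hbb-bs has the related neighbour Hbb-bt, a gene without a row, and their entries shared an identical run of at most 14 bases. Transcript sequences were not compared, so how far reads of this pair could be shared was not tested.

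At E14.5, 2 of the 3 embryonic globins were called higher in KI, and the third was too low to be tested. Hbb-y, the embryonic beta-like chain epsilon-y, rose by 41.4% (95% interval 28.9% to 55.2%), and Hba-x, the embryonic alpha-like chain zeta, rose by 50.7% (95% interval 23.1% to 84.4%). The adult alpha globins and Alas2 had estimates of much the same size but did not pass the test. Of the 5 members with an adjusted p, 2 rose and none fell, and 4 had an unadjusted p under 0.05 in the authors' DESeq2 comparison. Over all 13417 genes tested, 0.738% rose, 1.21% were called in either direction and 11.5% had an unadjusted p under 0.05. A gene is called when the adjusted p of the authors' DESeq2 comparison is under 0.05.

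Hbb-y had the second lowest p-value of the whole table, after Chd8 itself. In the authors' deposited table it stood at a log2 fold change of 0.50 (SE 0.068, adjusted p = 1.64e-09, DESeq2) and a mean normalized count of 960. A mean normalized count is the read count after division by a size factor for each library, averaged over the libraries of the stage. That mean and the fold change together correspond to 796 normalized counts in WT and 1125 in KI. Hba-x stood at 0.59 (SE 0.149, adjusted p = 0.0118, DESeq2) and a mean normalized count of 163 in the authors' deposited table, which corresponds to 130 in WT and 196 in KI. By p-value it ranked 77 of the genes tested. Its call ended with a Benjamini-Yekutieli adjustment (adjusted p = 0.119) and with an empirical null (adjusted p = 0.178), whereas that of Hbb-y did not (its highest adjusted p over the alternatives was 1.12e-05). Among the 162 called genes these fold changes ranked 15 and 16 from the top.

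Hbb-bh1, the other embryonic beta-like chain, was too low to be tested. The authors' deposited table gives it a mean normalized count of 5.31 and a log2 fold change of 1.01 (SE 0.610), with no adjusted p. Its 95% interval ran from −0.19 to 2.20, so it includes 0 as well as the values of Hbb-y and Hba-x. The 3 embryonic globins together summed to 929 normalized counts in WT and 1329 in KI, most of it from Hbb-y. Counts are not corrected for transcript length, so they rank neither these genes nor any others by abundance.

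Among the adult globins, Hba-a1 had the highest count of all members and the least certain fold change of those tested. In the authors' deposited table it stood at 0.45 (SE 0.385, adjusted p = 0.720, DESeq2) and a mean normalized count of 1405. This corresponds to 1189 in WT and 1621 in KI, a difference of 36.4% with a 95% interval from −19.2% to 130%. Hba-a2, the second adult alpha gene, stood at 0.54 (SE 0.272, adjusted p = 0.427, DESeq2) and a mean normalized count of 306 in the authors' deposited table. Its genotype means were 249 in WT and 362 in KI, and the 95% interval of the difference ran from 0.414% to 110%. Both intervals contain the estimates of Hbb-y and Hba-x, so the data do not show that adult alpha globin differed less than embryonic globin. No test between members was made, since all were measured in the same libraries.

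Hbb-bs, an adult beta chain, had a mean normalized count of 22.8 and a log2 fold change of 0.14 (SE 0.410), with no adjusted p, in the authors' deposited table. Alas2 stood at 0.49 (SE 0.232, adjusted p = 0.376, DESeq2) and a mean normalized count of 156 in the authors' deposited table, or 129 in WT and 182 in KI. The 95% interval of its difference ran from 2.42% to 92.6%. Taken over the 7 members, the log2 fold changes lay between 0.14 and 1.01 and all 7 were above 0, with a median of 0.50. The 5 members with an adjusted p were also all above 0, with a median of 0.50. Of all genes tested 49.8% were above 0, with a median of −0.00. Members expressed in the same cells are not independent measurements, and the genes were chosen with earlier results of these data known.

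**Figure D1:**
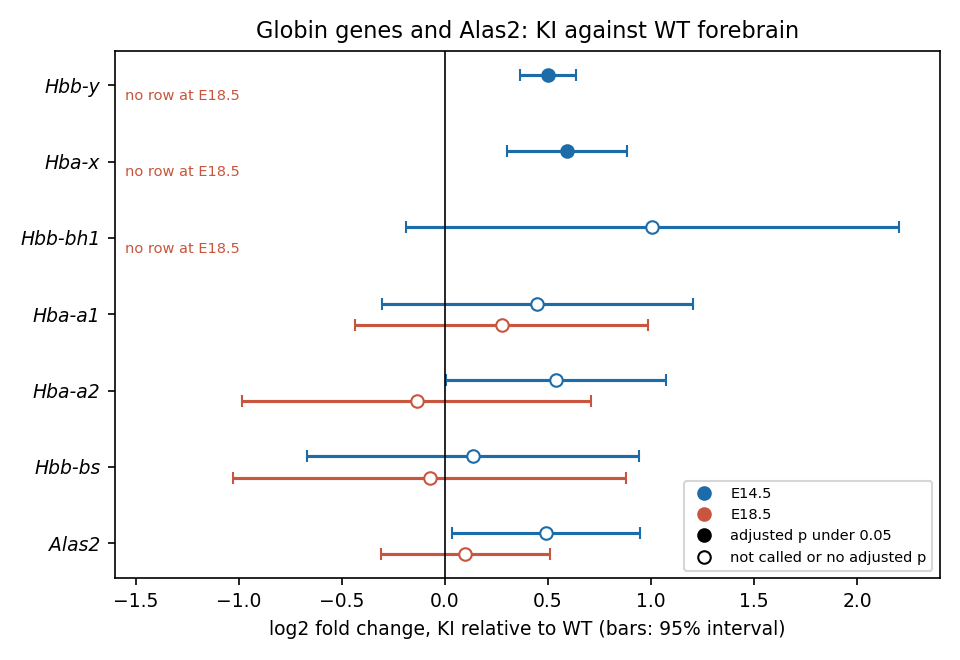
Log2 fold change of KI relative to WT for each member (horizontal axis), with its 95% interval, at E14.5 (blue) and E18.5 (red); filled points have an adjusted p under 0.05. The embryonic Hbb-y and Hba-x at 0.50 and 0.59 are the filled points, the adult genes Hba-a1 and Hba-a2 lie near the same values at E14.5 with wider intervals, and the embryonic globins have no row at E18.5.

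**Figure D2:**
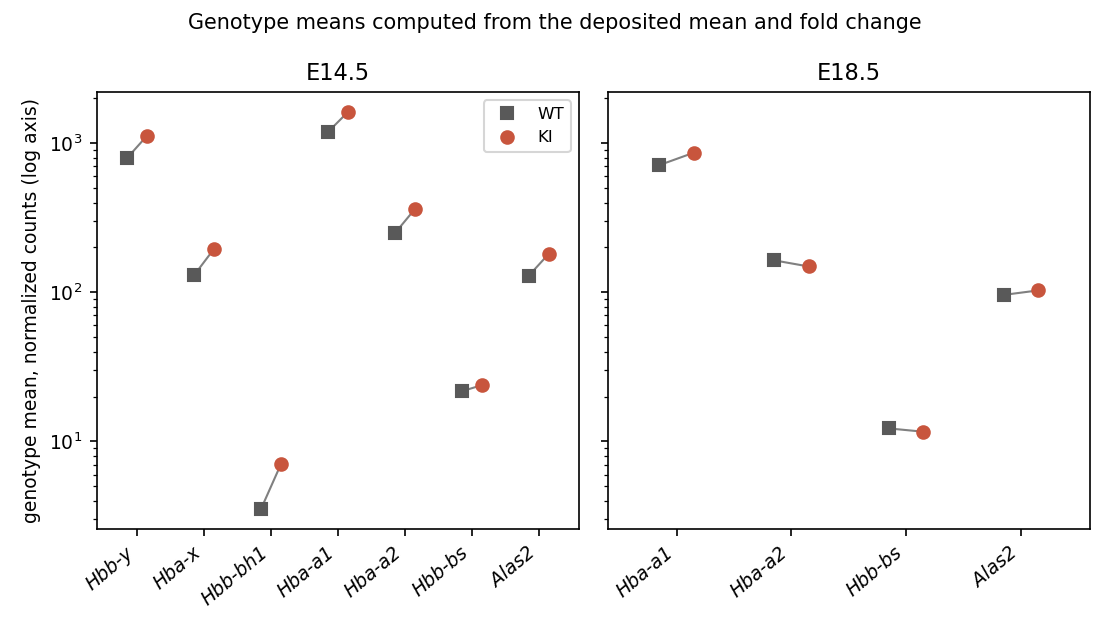
Mean normalized count of WT (grey squares) and KI (red circles) for each member with a row at E14.5 (left) and E18.5 (right), on a log axis, computed from the deposited mean and fold change, with no error bars because values per library were not analysed here. At E14.5 the line from WT to KI rises for all 7 members, and at E18.5 it rises for Hba-a1 and Alas2 and falls for Hba-a2 and Hbb-bs.

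The tested members differed more in the precision of their fold changes than in the fold changes themselves. Values per library were not analysed here, but the SE of a fold change over 5 against 5 libraries gives the spread that the model fitted. The fitted spread need not equal the one observed between libraries. After subtraction of counting error, the SE of Hbb-y implied a coefficient of variation (CV) of 6.73% between libraries of a genotype at E14.5. Over all tested genes the median was 6.29%. Hba-x, at a lower count, implied 14.2%. The adult genes implied 42.1% for Hba-a1, 29.3% for Hba-a2 and 24.1% for Alas2. Among the genes tested, Hbb-y was at percentile 55.3 of this spread and Hba-x at percentile 87.2, while Alas2 was at percentile 98.9, Hba-a2 at 99.8 and Hba-a1 at 99.9. These percentiles and the median are over genes of every count, and none was computed among genes of like count. The untested members implied 48.5% for the embryonic Hbb-bh1 and 39.8% for the adult Hbb-bs.

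Counting error was a small share of the uncertainty of the adult alpha genes. It made up 0.409% of the variance of the Hba-a1 fold change and 3.80% of that of Hba-a2, against 19.2% for Hbb-y and 24.1% for Hba-x. With its SE, Hba-a1 would have needed a log2 fold change of 1.32 to be called at E14.5, and Hba-a2 one of 0.93. Hbb-y would have been called at 0.23, Hba-x at 0.51 and Alas2 at 0.80. The CV is the value fitted by the authors' model under the assumption of equal library sizes, and whether 1 library or many carried the spread was not tested.

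**Figure D3:**
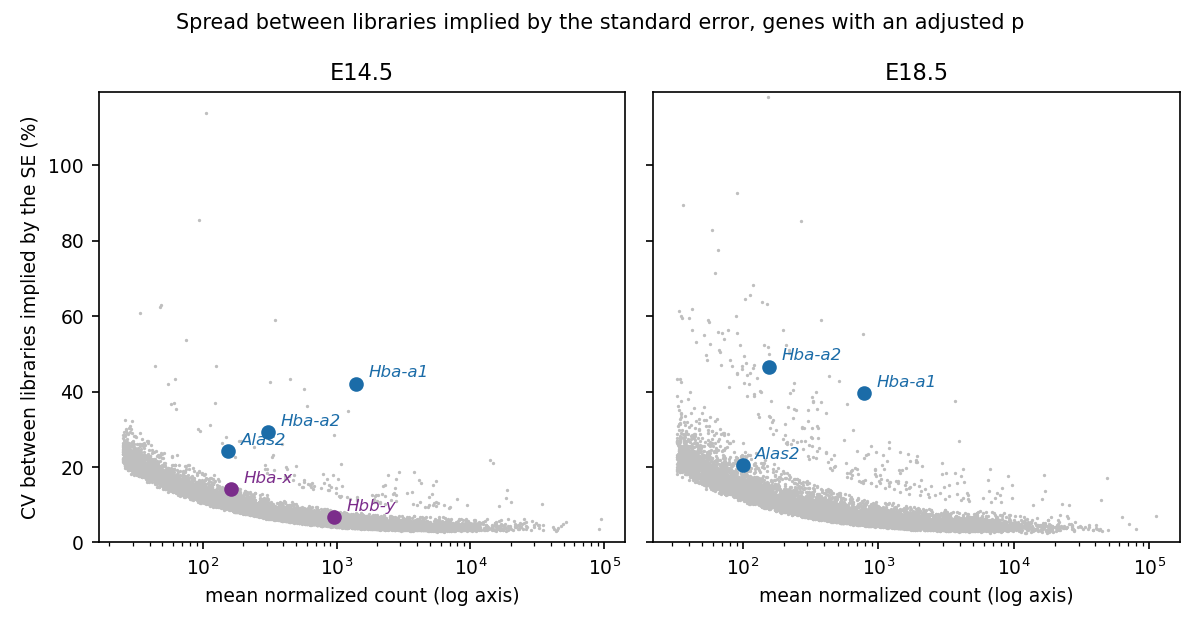
CV between libraries implied by the SE (vertical axis, percent) against the mean normalized count (log axis) for every gene with an adjusted p (grey) at E14.5 (left) and E18.5 (right), with the embryonic globins in purple and the adult members in blue. At E14.5 Hbb-y (6.73%) and Hba-x (14.2%) lie within the grey cloud at their counts, and Hba-a1 (42.1%) and Hba-a2 (29.3%) lie above it.

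At E18.5 none of the embryonic globins had a row, so their levels there were not analysed here. The lowest mean normalized count listed at E18.5 was 9.70, against 0.987 at E14.5. Of the 11446 genes whose mean normalized count reached 100 at E14.5, 3 had no row at E18.5 (0.0262%). They were Hbb-y, Hba-x and Neurog1, a transcription factor of early neurogenesis. Leaving out symbols of the form Gm or Rik, 1622 named genes were listed at E14.5 alone, and Hbb-y had the highest mean normalized count among them. It was followed in the authors' deposited table by Neurog1 at 199, Hba-x at 163, the cholecystokinin receptor gene Cckar at 77.1 and the homeobox gene Six4 at 69.2. Only 20 of these 1622 genes had an adjusted p at E14.5. Of the 20, 2 rose, Hbb-y and Hba-x, and none fell, while 0.738% of all 13417 genes tested rose. The set was defined by the listing pattern of the embryonic globins, so their calls within it are not a separate result. Neurog1, Cckar and Six4 stood at log2 fold changes of 0.20, 0.09 and 0.32 (SE 0.112, 0.153 and 0.171; adjusted p = 0.499, 0.894 and 0.468, DESeq2) in the authors' deposited table.

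The adult globins and Alas2 were listed at E18.5, and none of the 3 tested members passed there. At an unadjusted p under 0.05 the count was also 0. Over 13601 genes, 0.0662% were called in either direction and 5.96% had an unadjusted p under 0.05. Hba-a1 stood at 0.28 (SE 0.362) and Hba-a2 at −0.14 (SE 0.432), both with an adjusted p of 0.9999 (DESeq2), in the authors' deposited table. The 95% interval of the difference in Hba-a1 ran from −25.9% to 98.1%, and that of Hba-a2 from −49.4% to 63.6%. Alas2 stood at 0.10 (SE 0.209) and Hbb-bs, with no adjusted p, at −0.07 (SE 0.486) in the authors' deposited table. Of the 4 members with a row, 2 were above 0, both among the 3 tested, as were 48.8% of all genes tested. These intervals are wide enough to hold the values seen at E14.5.

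Mean normalized counts at E18.5 were 788 for Hba-a1, 156 for Hba-a2, 99.5 for Alas2 and 11.9 for Hbb-bs in the authors' deposited table. Each was below the count listed at E14.5, but the stages were normalized separately, so no fold is given. Placed among the genes listed at both stages, Hba-a1 was at percentile 76.4 by mean normalized count at E14.5 and 61.1 at E18.5, and Hba-a2 at 41.1 and 28.6. Alas2 was at percentiles 31.0 and 23.0. The 6 globin members made up 0.0153% of the summed mean normalized counts at E14.5, of which the embryonic genes gave 0.00603%, and the 3 listed at E18.5 made up 0.00470%. The spread remained large at E18.5, with implied CVs of 39.5% for Hba-a1, 46.7% for Hba-a2 and 20.6% for Alas2 against a median of 6.87% over all tested genes.

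The effect of KI on the adult members was not shown to differ between stages. Subtracting the E14.5 estimate from the E18.5 estimate gave −0.17 (SE 0.529, 95% interval −1.21 to 0.86) for Hba-a1, −0.68 (SE 0.511, 95% interval −1.68 to 0.32) for Hba-a2 and −0.39 (SE 0.312, 95% interval −1.003 to 0.22) for Alas2. In a z test on the authors' DESeq2 estimates, each had an adjusted p of 0.999. None of 13106 genes passed that test, Chd8 included, and 4.52% had an unadjusted p under 0.05. None of these 3 members did. The embryonic globins could not enter this comparison.

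The genes nearest to a member in the plane of its fold changes at E14.5 and E18.5 were found among about 12401 named genes with an adjusted p at both stages. For Hba-a1 these were Reck, Mcub and Khk, within a distance of 0.0252 on the log2 scale. For Hba-a2 they were Chrnb1, Cyp2j9 and Fndc1, within 0.0423. For Alas2 they were Ccn6, Sorbs2os and Fndc8, within 0.0428, and for Hbb-bs Hes5, Invs and Arhgap24, within 0.00676. Each likeness rests on 2 comparisons, and no globin or erythroid gene of the lists was among these neighbours.

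Other globin genes with a row were Hbb-b1, Hbq1a, Hbq1b, Cygb and Ngb. Hbb-b1 (gene ID 15129), an adult beta chain in the symbol table, stood at 0.48 (SE 0.331, adjusted p = 0.619, DESeq2) with a mean normalized count of 601 at E14.5 in the authors' deposited table. Its fold change is close to that of Hba-a1, its count is lower, and its implied CV was 36.1%. RefSeq gives this ID coordinates apart from the chromosome 7 cluster, so which reads were counted for it is not known here. The authors' deposited table gives it 0.41 (SE 0.367) at E18.5. The theta-like genes Hbq1a and Hbq1b, which adjoin the adult alpha genes, were below 0 at E14.5, at −0.47 and −0.49 (SE 0.881 and 0.573) with mean normalized counts of 2.62 and 6.03 in the authors' deposited table. Globins made outside red cells were also listed, and neither was called. Cytoglobin (Cygb) stood at −0.02 (SE 0.079, adjusted p = 0.952, DESeq2), and neuroglobin (Ngb) at −0.35 (SE 0.476, no adjusted p), at E14.5 in the authors' deposited table.

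The genes that flank the alpha-globin cluster did not pass the test at E14.5. Of 8 listed neighbours 7 were tested, 0 were called, and 2 had an unadjusted p under 0.05 in the authors' DESeq2 comparison, where 11.5% of all tested genes did. Their median log2 fold change was −0.10. The lowest was Rhbdf1 at −0.19 (SE 0.101) and the highest Luc7l, a splicing factor gene, at 0.13 (SE 0.038, adjusted p = 0.0544, DESeq2), in the authors' deposited table. At E18.5 none of the 7 was called and 1 had an unadjusted p under 0.05.

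Genes of the red-cell membrane and of red-cell enzymes were mostly low in these libraries. Of 20 listed, 16 had a row at E14.5 and 7 had an adjusted p, of which 0 were called and 2 had an unadjusted p under 0.05 in the authors' DESeq2 comparison. Slc4a1, the anion exchanger band 3 of the red-cell membrane, was the highest tested, at 0.65 (SE 0.296, adjusted p = 0.339, DESeq2), with a mean normalized count of 35.2, in the authors' deposited table. Of the 16 with a row, 11 had estimates above 0, with a median of 0.07. Epb41 and Add2 had mean normalized counts of 5713 and 3937, and which cells these counts came from was not tested. The lowest tested was the carbonic anhydrase gene Car2, which brain cells also express, at −0.32 (SE 0.149, adjusted p = 0.355, DESeq2), in the authors' deposited table. At E18.5, 10 of the 20 had a row, 6 were tested and 0 were called.

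The regulators of erythroid genes were likewise not called. Of 14 listed, 12 had a row at E14.5, 8 were tested, and none passed or had an unadjusted p under 0.05 in the authors' DESeq2 comparison. Gata1, the master factor of red-cell differentiation, had no row. Most of the list's summed mean normalized count of 18966 at E14.5 came from Bcl11a (8569), Ldb1 (6235) and Sox6 (2852). Which cells these counts came from was not tested, so the list is not a measure of red cells alone. Klf1, which activates adult beta globin, stood at 0.07 (SE 0.384, no adjusted p) with a mean normalized count of 11.6 in the authors' deposited table. Nfe2, another erythroid factor, stood higher, at 1.06 (SE 0.621, no adjusted p) with a mean normalized count of 5.53 in the authors' deposited table, and was chosen after its value was seen. Tal1 was the lowest tested, at −0.40 (SE 0.262, adjusted p = 0.588, DESeq2), and Myb the highest, at 0.13 (SE 0.111, adjusted p = 0.720, DESeq2), in the authors' deposited table. At E18.5, 8 were tested and 0 were called or had an unadjusted p under 0.05.

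Haem synthesis beyond Alas2 showed 1 rise. All 12 listed genes were tested at E14.5, with a median log2 fold change of −0.01, and Abcb10, a transporter of the inner mitochondrial membrane that acts in haem formation, rose at 0.28 (SE 0.058, adjusted p = 0.000668, DESeq2) in the authors' deposited table. At E18.5 it stood at 0.09 (SE 0.058, adjusted p = 0.996, DESeq2) in the authors' deposited table. Alas1, the form of the enzyme used outside red cells, stood at 0.05 (SE 0.056) and Alad, which acts after it, at −0.03 (SE 0.081) at E14.5 in the authors' deposited table. The lowest was Uros at −0.21 (SE 0.085, adjusted p = 0.268, DESeq2) in the authors' deposited table. None of the 12 was called at E18.5.

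Iron handling was not called in any of its 14 genes at either stage, and 2 had an unadjusted p under 0.05 at each stage in the authors' DESeq2 comparison. Slc25a37, the mitochondrial iron importer mitoferrin, was the highest at E14.5, at 0.22 (SE 0.088, adjusted p = 0.256, DESeq2), in the authors' deposited table. Tfrc, the transferrin receptor, stood at 0.12 (SE 0.102) and the iron exporter gene Slc40a1 was the lowest at −0.25 (SE 0.126), in the authors' deposited table.

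**Figure D4:**
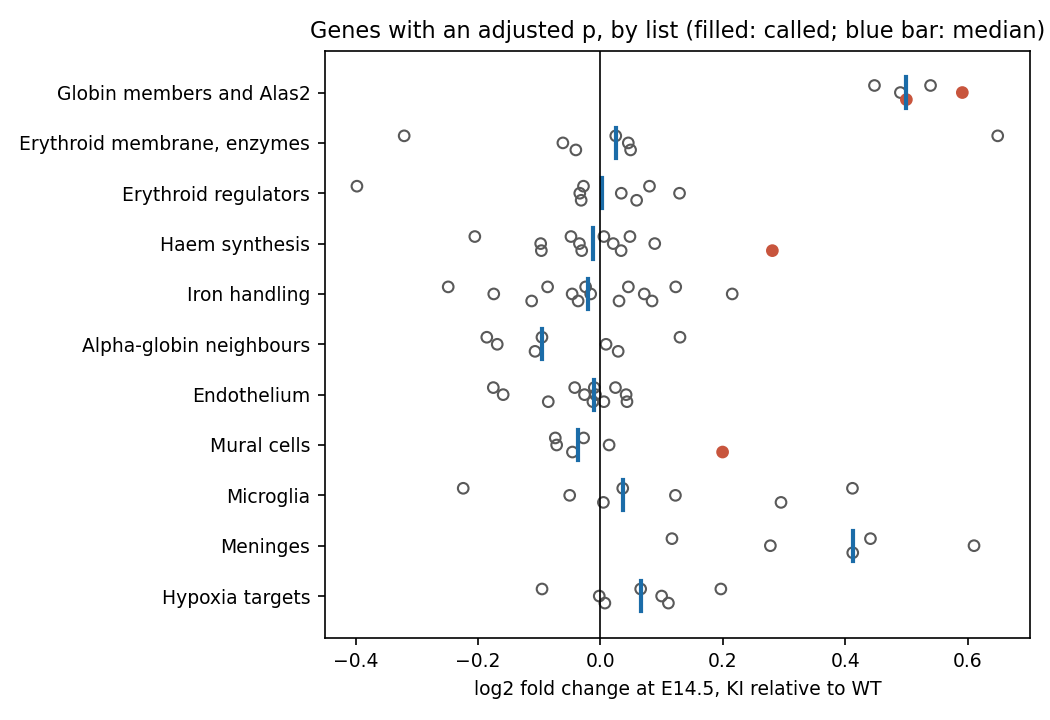
Log2 fold change of KI relative to WT at E14.5 (horizontal axis) for every gene with an adjusted p in 11 lists, with called genes filled in red and the median of each list as a blue bar. The 5 tested members lie between 0.45 and 0.59, the endothelial genes lie around 0, and the 5 tested meningeal genes all lie above 0.

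Endothelial markers of blood vessels did not pass the test. None of the 12 endothelial genes tested at E14.5 was called or had an unadjusted p under 0.05 in the authors' DESeq2 comparison, and their median log2 fold change was −0.01. Pecam1, an adhesion molecule of endothelium, stood at 0.02 (SE 0.084) and the junction gene Cdh5 at −0.16 (SE 0.105) in the authors' deposited table. Over the 12, fold changes ran from −0.18 to 0.04, and their summed counts were 3460 in WT and 3398 in KI. Among 6 tested genes of mural cells, which wrap small vessels, Notch3 rose at 0.20 (SE 0.051, adjusted p = 0.0120, DESeq2), with Pdgfrb at −0.07 (SE 0.082) and Rgs5 at −0.03 (SE 0.089), in the authors' deposited table.

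Genes marking the meninges, the membranes that cover the brain and carry its surface vessels, had estimates above 0 at E14.5. All 9 with a row were above 0, and the median of the 5 tested was 0.41, but none was called and 2 had an unadjusted p under 0.05 in the authors' DESeq2 comparison. Col1a2 stood at 0.61 (SE 0.207, adjusted p = 0.118, DESeq2) and Foxc1, the lowest tested, at 0.12 (SE 0.186, adjusted p = 0.877, DESeq2) in the authors' deposited table. Lum had no row. The summed counts of the list were 350.3 in WT and 461 in KI, and the part of these tissues in the globin result was not tested. At E18.5, 8 of the 10 meningeal genes had no adjusted p in the authors' deposited table, and 7 of these had no p-value at all. They were not all low, since Col3a1 and Col1a2, both without a p-value, had mean normalized counts of 490 and 407 there. The reason for the missing p-values was not tested.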

How the data were processed

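RNA sequencing of 5 WT and 5 KI forebrain libraries per stage was used as deposited, as 1 comparison table per stage. ChIP-seq and ATAC-seq libraries were not analysed here. The submitters' processing notes name Trimmomatic 0.39, HISAT2 2.1.0, featureCounts 2.0.0, DESeq2 1.26.0 and mm10, without roles or counting options. Per the file headers, the authors deposited a mean normalized count (a signal averaged over all libraries of the stage), a log2 fold change with its SE, a score (the Wald statistic) and the p-value before and after adjustment. The files hold 0 columns of per-sample values, so library depth is unknown and the SE carries the precision.

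Gene IDs were named through RefSeq (GRCm38.p6), which matched 17192 of 17940 IDs at E14.5 and 15064 of 15449 at E18.5. Genotype means, 95% intervals, the CV implied by the SE (negative binomial, equal library sizes) and the stage difference (z test, Benjamini-Hochberg over all genes) were computed with Python 3.11.15, pandas 2.3.3, NumPy 2.4.6 and SciPy 1.17.1, and tested on simulated data. Of genes with a row, 13417 and 13601 had an adjusted p; the lowest mean normalized counts with one were 25.2 and 32.7. The members and the 17 gene lists were chosen with earlier results of these data known. Named genes are the members, other globins, Chd8, the nearest genes as described, and from each list its called genes, the first 2 measured and the extremes among those with an adjusted p at E14.5. Some genes that this rule would name are not reported here.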

Additional observations from a re-analysis of the deposited data

How the results depend on the processing

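Of the alternatives, a Benjamini-Yekutieli adjustment and an empirical null (Wald statistics rescaled by 1.22 at E14.5) each left 1 member called at E14.5, Hbb-y, in place of 2. The other alternatives left both. No member was called at E18.5, or differed between stages, under any alternative run. Of 60 values of single members under alternatives, 58 kept their direction and side of the threshold and 2 lost the call, both for Hba-x; none reversed. Among all genes, the counts called at E14.5 were 56 with the Benjamini-Yekutieli adjustment, 31 with the empirical null and 319 at an adjusted p under 0.10, in place of 162. At E18.5 they were 4, 19 and 18, and 14 with mean normalized counts of at least 100, in place of 9. The share of E14.5 calls that were higher in KI was 80.6% with the empirical null and 61.1% without it. The cause was not tested. No library could be left out in turn without values per library. No paired analysis was possible because the columns carry no replicate. Hbb-bh1 and Hbb-bs had low mean normalized counts and no adjusted p in the deposited tables, and what part depth has in this was not tested.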

Other observations

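Among other blood and border cell types, granulocyte and macrophage genes were sparse, whereas all 10 microglia genes had a row at E14.5. Of 8 granulocyte genes 2 had a row at E14.5, with Prtn3 at 0.29 (SE 0.192, adjusted p = 0.596, DESeq2) in the authors' deposited table, and S100a8 and S100a9 had none. All 6 platelet genes had a row at E14.5 and 3 were tested, with 0 called and none at an unadjusted p under 0.05, and Itga2b stood at −0.07 (SE 0.217) in the authors' deposited table. Of 6 macrophage genes 4 had a row, and Mrc1, the only one tested, stood at −0.15 (SE 0.253) in the authors' deposited table. Microglia genes had a median log2 fold change of 0.04 over 7 tested, with 0 called and none at an unadjusted p under 0.05, and Csf1r at 0.12 (SE 0.094) in the authors' deposited table. All 8 choroid plexus genes had a row at E14.5, where 2 had estimates above 0 and the median log2 fold change was −0.30. Otx2 was the only 1 tested there, at 0.16 (SE 0.136, adjusted p = 0.717, DESeq2) in the authors' deposited table.

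Hypoxia targets had a median log2 fold change of 0.07 over 7 tested genes at E14.5, with 0 called and 1 at an unadjusted p under 0.05. Vegfa stood at 0.20 (SE 0.069, adjusted p = 0.143, DESeq2) and the glucose transporter gene Slc2a1 at 0.10 (SE 0.059, adjusted p = 0.528, DESeq2) in the authors' deposited table. The erythropoietin gene Epo had no row at either stage. Of the 10 forebrain markers, Dlx1 rose at 0.17 (SE 0.047) and Neurod6 fell at −0.20 (SE 0.046) at E14.5 in the authors' deposited table.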
